A study of Mus musculus with 6 samples.

Results

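The calcium buffers and neuronal calcium sensors described here are 10 genes: the calneuron gene Caln1, the buffer genes Calb1, Calb2 and Pvalb, and the sensor genes Hpca, Hpcal1, Hpcal4, Ncald, Ncs1 and Vsnl1. They were taken from the 18193 genes that the array's annotation names singly, as every probe set assigned to exactly 1 of the 10 symbols. This gave 21 probe sets, of which 15 were bright enough to be tested and 6 were not. Caln1 was chosen by its signals on these arrays, for being consistently lower in the SOD1 samples, so its difference between the genotypes is described without a test. The other genes complete the family around it.

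All 10 proteins bind calcium through EF-hand loops. Calbindin D28k (Calb1), calretinin (Calb2) and parvalbumin (Pvalb) are buffers: they take up calcium that enters the cell and so limit how far and how long it spreads. Spinal and most brainstem motor neurons are known for holding little of these buffers, while the oculomotor nuclei, which are spared longer in amyotrophic lateral sclerosis, hold more. The sensors work differently: on binding calcium they change shape and act on partner proteins or move to membranes. Calneuron 1 sits on the Golgi apparatus and restrains a phosphatidylinositol 4-kinase that NCS-1 stimulates, and NCS-1, hippocalcin and the visinin-like proteins carry a myristoyl anchor.

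The RNA was that of brainstem motor neurons of mice, the cells that drive the muscles of the head and neck, and was hybridised to 1 Affymetrix array per sample. There were 3 wild-type (WT) samples and 3 from SOD1 mice, named for the superoxide dismutase gene that is mutated in some families with amyotrophic lateral sclerosis. The labels and files used here name no allele or promoter for SOD1, no strain, sex or age and no method of collecting the neurons, and they do not say whether animals were pooled. All 6 samples went through 2 rounds of T7-based amplification, and no label says that each was a separate animal. The p-values are therefore measured against the spread of these 6 samples alone, and that spread may be technical.

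The median deposited signal lay between 267 and 315 over the 6 arrays, and their small number limits the precision. Between arrays the log2 signals correlated at 0.918 to 0.957 within a genotype and at 0.901 to 0.937 across genotypes, over probe sets. Values below are log2 signals after quantile normalisation and addition of 16, and n = 3 per group throughout. A probe set was taken as above background where it exceeded the 95th percentile of the 27 bacterial control probe sets of that array, a level of 7.21 to 7.61. Of 11 motor neuron markers measured, 10 were above background on all 6 arrays, Isl1, Prph and Nefl among them, and Mnx1 was not. Microglial and myeloid markers were higher in SOD1. The summed signal of 15 genes was 10981 to 48225 in WT and 121316 to 235456 in SOD1. Of 14 tested, 6 rose (limma, adjusted p under 0.05), as did 0.0629% of all probe sets tested. For 13 of the 15 every SOD1 array was above every WT array, as for 10.5% of all. For 11 motor neuron markers the sum was 600732 to 666032 in WT and 551522 to 615985 in SOD1, and 0 of 10 tested passed. This sum weighs bright markers such as Nefl (17.36 to 17.42) more than Slc18a3 (12.06 to 13.66) or Ache (13.67 to 15.45). Of the 10 tested, 4 had every SOD1 array below every WT array, as 9.81% of all probe sets tested did. These were Slc18a3 (difference -0.996), Ache (-1.06), Nefm (-0.33) and Nefh (-0.20). For 1, Isl1 (0.23), every SOD1 array was above, as for 10.5% of all. The groups overlapped for Slc5a7 (0.72), Calcb (0.27), Nefl (0.0070), Prph (-0.16) and Chat (-0.40). No marker of either list was at or below background on all 6 arrays. Xist was at 14.71 and 14.63 on SOD1 replicates 1 and 2 and between 7.27 and 7.75 on the other 4 arrays, so sex may differ between the groups. The brightest mouse Sod1 probe set read 16.33 to 16.68 in WT and 16.69 to 16.84 in SOD1 (difference 0.27 ± 0.10 SE, limma, adjusted p = 0.257). It need not read a transgene, so it does not check the labels.

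Caln1 was lower in all 3 SOD1 samples on both of its bright probe sets. On 1425846_a_at the deposited signals were 56920, 62982 and 64186 in WT replicates 1 to 3, and 35635.5, 36028 and 35906 in SOD1 replicates 1 to 3. The normalised log2 values were 15.88, 15.99 and 16.02 in WT and 15.08, 15.09 and 15.06 in SOD1. The SOD1 samples lay close together, all below the WT samples, with a gap of 0.78 between the groups. The means were 15.96 ± 0.077 in WT and 15.08 ± 0.017 in SOD1 (SD, n = 3), a difference of -0.88, or a level 1.85-fold higher in WT.

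The probe set 1445202_at gave the same order with a smaller difference. Its WT values were 14.75, 14.69 and 14.83, and its SOD1 values 14.26, 14.35 and 14.30. The groups were separated by 0.34, and WT was 1.37-fold higher (difference -0.45). The third probe set, 1442695_at, was dim and erratic. It read 7.11, 9.40 and 10.03 in WT, with replicate 1 at background, and 9.33, 8.06 and 9.17 in SOD1. Its groups overlapped and their means differed by 0.0086.

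Of all 27022 probe sets tested, 9.81% had every SOD1 array below every WT array, and 0.122% passed the test as lower in SOD1. Since Caln1 was chosen for its fall, nothing is read from its position among them. The size of the fall depended on the scaling: 1425846_a_at differed by -0.77 with the values as deposited and by -0.67 with median centring, and 1445202_at by -0.40 and -0.30. With a term for Xist, which leaves the comparison resting on SOD1 replicate 3 alone against WT, the differences were -0.90 and -0.45. The part of sex in them was not tested. In RNA from many cells, fewer motor neurons and less Caln1 RNA per neuron cannot be told apart. Other marker sums differed as well. That of endothelial and mural cells was 30178 to 71831 in WT and 5917 to 20381 in SOD1. The sums for astrocytes and oligodendrocytes were higher in SOD1. The part of these differences and of the higher microglial signal in the Caln1 difference was not tested.

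**Figure D1:**
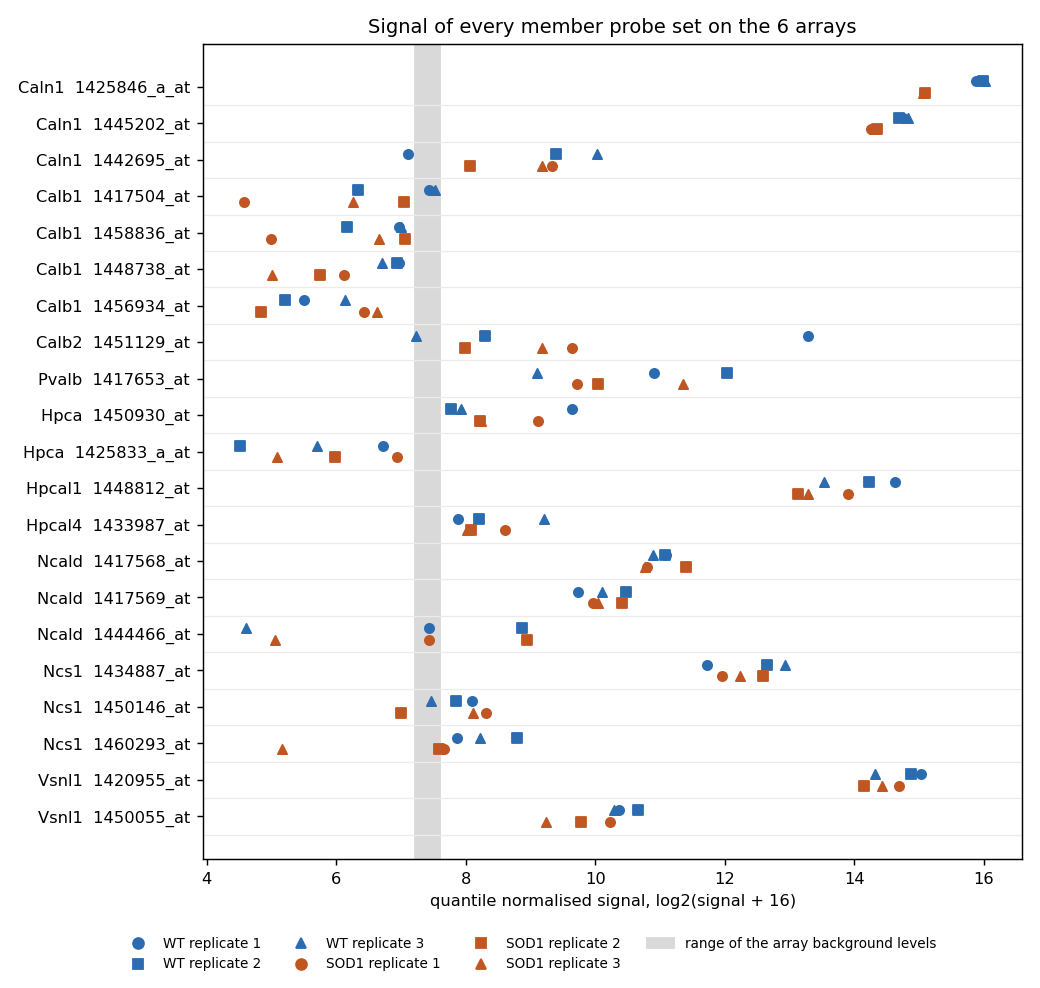
Each row is 1 probe set of the 10 genes and each point 1 array, on a log2(signal + 16) axis, blue for WT and orange for SOD1, with the shape giving the replicate. The grey band spans the background levels of the 6 arrays (7.21 to 7.61). The 2 bright Caln1 probe sets separate the genotypes, all 4 Calb1 probe sets lie at the left edge in or below the band, and Calb2 has 1 WT array far to the right at 13.29.

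The region in front of the Caln1 start is shown because this gene carries the difference that led to the set. It is the RefSeq start in GRCm38.p6, chr5:130369208-130369457 on the + strand, the 250 bases before the transcript, with a CAGCTG E-box, a string that basic helix-loop-helix factors can bind, in capitals. It begins 54 bases before the start (position -54).
Caln1: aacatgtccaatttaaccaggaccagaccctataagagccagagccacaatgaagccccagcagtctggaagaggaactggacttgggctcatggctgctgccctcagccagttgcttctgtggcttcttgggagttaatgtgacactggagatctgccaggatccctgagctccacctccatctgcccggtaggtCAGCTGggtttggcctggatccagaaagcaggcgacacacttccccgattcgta
This stretch holds 4 CpG dinucleotides and is 55.2% G and C, against medians of 6 and 52.4% over 32851 RefSeq starts. Of 4 letter strings searched on both strands, only CAGCTG was found here, so no matches overlapped; this string is present at 13% of all starts. TATAAA (the TATA box) is present at 12.4% of starts, GGGCGG (the GC box) at 32.7% and TGACG (part of the cyclic AMP response element) at 17.8%. The table matched 7 of the 10 genes with 11 starts. Among these 11 starts GGGCGG was found at 6, in Hpca, Hpcal1, Hpcal4, Ncs1 and Vsnl1, CAGCTG at 2, and TATAAA and TGACG at 0. The G and C content of the 11 ran from 41.6% at a Vsnl1 start to 75.6% at Ncs1. These matches describe the letters in the windows, and the expression data do not show which start was used.

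The 5 probe sets of other genes whose profile over the 6 arrays was nearest to that of Caln1 1425846_a_at were those of Vars, Abcb6, Atg4b, Lmf1 and Adcy5. Likeness was measured as the root mean square difference of log2 signals after each probe set's own mean was subtracted. This difference was 0.050 for Vars, a valyl-tRNA synthetase, 0.069 for Abcb6, a porphyrin transporter, and 0.074 for Atg4b, an autophagy protease. It was 0.080 for both Lmf1, a lipase maturation factor, and Adcy5, an adenylyl cyclase that calcium inhibits. Their differences between the genotypes were -0.93 to -0.79. These 5 were picked for their likeness to Caln1, so their fall follows from the choice and is no separate result. The second Caln1 probe set was at 0.223, farther away than 369 of 23110 named probe sets, and its difference between the genotypes was smaller. The dim probe set was at 1.04, behind 20745 of them.

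**Figure D2:**
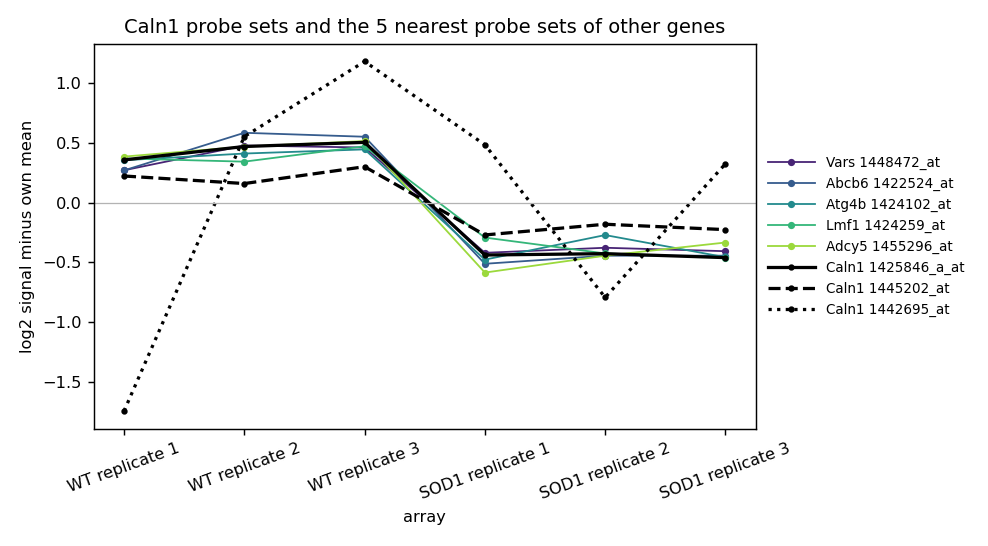
The log2 signal of each probe set minus its own mean is plotted for the 6 arrays, in black for the 3 Caln1 probe sets and in colour for the 5 nearest probe sets of other genes. Lines only join the values of a probe set. Caln1 1425846_a_at and its 5 neighbours are lower in SOD1 (differences of -0.93 to -0.79), Caln1 1445202_at less so (-0.45), and Caln1 1442695_at swings from array to array. The neighbours were picked for this likeness, so their fall follows from the choice.

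Calbindin D28k RNA was barely detected. None of the 4 Calb1 probe sets passed the filter on mean signal (7.38), and they were not tested. The brightest, 1417504_at, read 7.42, 6.33 and 7.52 in WT and 4.57, 7.04 and 6.25 in SOD1. It was above background on WT replicates 1 and 3 and on 0 SOD1 arrays. The other 3 Calb1 probe sets were at or below background on all 6 arrays, with values from 4.84 to 7.05, so they give no level for either genotype. One of these, 1448738_at, read lower in every SOD1 sample (6.12, 5.74 and 5.0) than in any WT sample (6.96, 6.94 and 6.70), but all 6 values are below background.

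Calretinin RNA was variable between samples of the same genotype. Calb2 read 13.29, 8.30 and 7.23 in WT and 9.65, 7.99 and 9.18 in SOD1. WT replicate 1 stood 3.64 above the next array, while WT replicate 3 was at background. The difference was -0.67 ± 1.21 (SE), with a 95% interval of -3.32 to 1.99 (limma, adjusted p = 0.835). Without WT replicate 1 it turned to 1.17 (limma, adjusted p = 0.485).

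Parvalbumin RNA was above background on every array and also uneven. Pvalb, a buffer gene that also marks many inhibitory interneurons, read 10.91, 12.04 and 9.10 in WT and 9.72, 10.03 and 11.36 in SOD1. The highest and the lowest sample were both WT, and the groups overlapped. The difference was -0.31 ± 0.66, with an interval of -1.76 to 1.13 (limma, adjusted p = 0.862). It was 0.37 without WT replicate 2 and 0.01 without SOD1 replicate 1. Of 11 markers of other neurons, 6 had their highest value on SOD1 replicate 3 (Gad1, Gad2, Slc32a1, Slc17a6, Vip and Npy). Gad1, which makes GABA, read 11.48 there and 5.97 to 7.56 elsewhere, and Slc32a1, the vesicular transporter for GABA, read 10.52 there and 7.26 to 8.81 elsewhere. The other 5 did not peak there: Sst, Th and Slc17a7 were below background on that array (6.62, 7.06 and 6.10), and Tph2 and Slc6a5 were highest on SOD1 replicate 2 (10.94 and 9.57). The summed signal of the 11 markers was 3109 to 4784 in WT and 4991 to 26869 in SOD1. It weighs bright values most, such as that of Npy on SOD1 replicate 3 (13.89). Of the 11, 4 were above background on all arrays, and 0 of 10 tested passed the threshold. Every SOD1 array was above every WT array for 1 (Vip, by a gap of 0.0069), as for 10.5% of all probe sets tested. Every SOD1 array was below for 1 (Sst), as for 9.81% of all. The sum of 6 cerebellar neuron markers was 2588 to 4260 in WT and 1262 to 4104 in SOD1. Only 2 of them, Cbln1 and Neurod1, were above background on all 6 arrays and tested, and 0 passed. The Purkinje cell genes Pcp2 and Car8 missed the filter, and the sum weighs Cbln1 and Neurod1 more. The part of such cells in the Pvalb and Calb2 values was not tested.

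Among the visinin-like sensors, Hpcal1 and Vsnl1 had strong signals and the lower estimates in SOD1, but neither passed the test. Hpcal1, hippocalcin-like 1, read 14.64, 14.23 and 13.53 in WT and 13.90, 13.13 and 13.29 in SOD1. SOD1 replicate 1 lay above WT replicate 3, so the groups overlapped. The difference was -0.69 ± 0.29, with an interval of -1.32 to -0.07 (limma, unadjusted p = 0.0333, adjusted p = 0.297). Leaving out WT replicate 1 gave -0.44 (adjusted p = 0.562).

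Vsnl1 encodes visinin-like protein 1, which is abundant in neurons and released when they are damaged. Its bright probe set, 1420955_at, read 15.03, 14.88 and 14.32 in WT and 14.69, 14.15 and 14.44 in SOD1. The groups overlapped, with a difference of -0.32 ± 0.21 and an interval of -0.77 to 0.13 (limma, adjusted p = 0.502). It was -0.18 without WT replicate 1, -0.53 without WT replicate 3, -0.19 without SOD1 replicate 2 and -0.16 with median centring. On the second probe set, 1450055_at, WT read 10.37, 10.66 and 10.29 and SOD1 read 10.22, 9.77 and 9.24. Here every SOD1 sample was below every WT sample, by a gap of 0.069, and the difference was -0.69 ± 0.35 (limma, adjusted p = 0.390). It was -0.44 without SOD1 replicate 3 and -1.20 with the Xist term.

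Ncald, or neurocalcin delta, was steady on the 2 probe sets tested. On 1417568_at it read 11.09, 11.07 and 10.89 in WT and 10.80, 11.40 and 10.77 in SOD1. The difference was -0.026 ± 0.29, with an interval of -0.66 to 0.61 (limma, adjusted p = 0.976). On 1417569_at it read 9.74, 10.47 and 10.10 in WT and 9.96, 10.41 and 10.04 in SOD1, and the difference was 0.035 ± 0.34, with an interval of -0.70 to 0.77 (adjusted p = 0.972). These intervals still allow a change of the size seen in Caln1 1445202_at. The third Ncald probe set, 1444466_at, missed the filter and spread widely in both genotypes, at 7.43, 8.87 and 4.60 in WT and 7.43, 8.94 and 5.05 in SOD1.

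Hpca and Hpcal4 were dim. Hippocalcin, a sensor known from hippocampal pyramidal cells, had 1 probe set tested, 1450930_at, which read 9.64, 7.78 and 7.92 in WT and 9.11, 8.22 and 8.24 in SOD1. Replicate 1 was the brightest array in both genotypes, and the difference was 0.078 ± 0.59, with an interval of -1.21 to 1.37 (limma, adjusted p = 0.965). Its other probe set, 1425833_a_at, was at or below background on all 6 arrays (4.51 to 6.93). Hpcal4, hippocalcin-like 4, read 7.87, 8.20 and 9.20 in WT and 8.60, 8.08 and 8.02 in SOD1, with a difference of -0.19 ± 0.52 and an interval of -1.33 to 0.95 (adjusted p = 0.898).

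Ncs1 encodes neuronal calcium sensor 1, which acts on the same lipid kinase as calneuron 1. Its brightest probe set, 1434887_at, read 11.73, 12.66 and 12.92 in WT and 11.95, 12.58 and 12.24 in SOD1. WT replicate 1 was the lowest of the 6 arrays, and the difference was -0.17 ± 0.32, with an interval of -0.88 to 0.53 (limma, adjusted p = 0.838). The probe set 1450146_at stayed near background, at 7.47 to 8.09 in WT and 6.99 to 8.31 in SOD1, with a difference of 0.0010 ± 0.59 (limma, adjusted p = 0.999). On 1460293_at WT read 7.86, 8.79 and 8.22 and SOD1 read 7.67, 7.59 and 5.16, so that all SOD1 values were lower. Of these SOD1 values only that of replicate 1 was above background, and the difference of -1.48 ± 0.77 (adjusted p = 0.401) became -0.66 without SOD1 replicate 3 and -3.13 with the Xist term (adjusted p = 0.693 and 0.146).

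Over the 9 genes other than Caln1, 12 of 18 probe sets were tested, from 8 genes, and 0 passed (limma, lowest adjusted p = 0.297), against 0.185% of all probe sets tested (0.122% lower and 0.0629% higher in SOD1). At an unadjusted p under 0.05 there was 1, that of Hpcal1, against 14.7% of all. The difference was negative for 9 and positive for 3, with a median of -0.25. Over all probe sets tested the median was -0.0065, and 50.5% were negative. The counts of negative and positive were 8 and 4 without WT replicate 1. They were 12 and 0 with the values as deposited, where the median over all probe sets was -0.062. All 3 SOD1 arrays were below all 3 WT arrays for 2 of the 12 (1 of Vsnl1 and 1 of Ncs1), where 9.81% of all probe sets were, and above them for 0, where 10.5% were. These counts leave out the 6 probe sets below the filter.

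**Figure D3:**
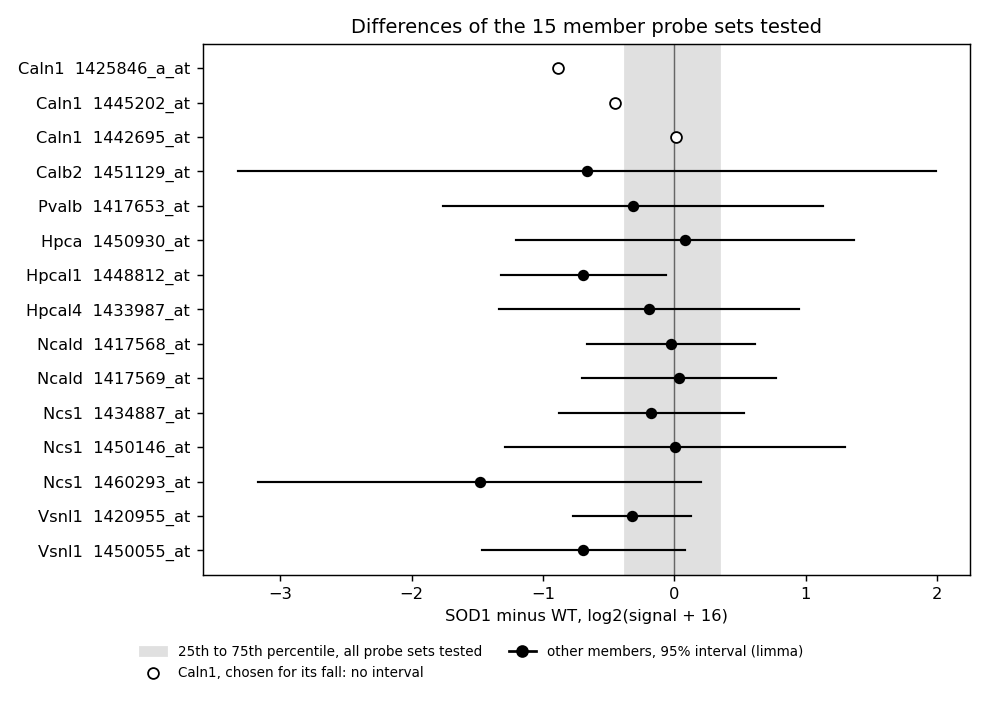
Differences between genotypes (SOD1 minus WT, log2(signal + 16)) are plotted for the 15 member probe sets tested, with 95% limma intervals as bars, and the 3 Caln1 probe sets as open circles without interval. The grey band holds the middle 50% of all probe sets tested (-0.37 to 0.34). Of the intervals only that of Hpcal1 leaves out 0, and the widest is that of Calb2.

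The wider calcium machinery was followed with 5 lists, using the probe set of highest mean for each gene. Of their 93 genes, 84 were measured and 76 tested. Of 25 tested genes for other EF-hand sensors and buffers, 0 passed and 3 had an unadjusted p under 0.05. Of all probe sets tested, 14.7% had such a p. The median difference of the 25 genes was 0.072 (0.054 to 0.27 over 18 alternatives, highest with median centring). The S100 genes S100a1 (12.79 ± 0.21 in WT and 13.79 ± 0.29 in SOD1, SD) and S100a16 (13.77 ± 0.72 and 14.85 ± 0.16) had the smallest p of this list, with differences of 1.00 ± 0.21 and 1.08 ± 0.29 (SE; limma, adjusted p = 0.0979 and 0.146). Both had all SOD1 samples above all WT samples, as 10.5% of all probe sets tested did. Both were read by probe sets that may also match other transcripts. Glial cells also express S100 genes, and the summed signal of 10 astrocyte markers was 60574 to 75538 in WT and 108397 to 116314 in SOD1. Of these 10 markers 2 passed as higher (limma), as did 0.0629% of all probe sets tested. None was at or below background on all arrays. The part of the astrocyte signal in the S100 values was not tested.

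Of 17 tested genes for calcium stores and store entry, 0 passed and 4 had an unadjusted p under 0.05. Their difference was negative for 14 (median -0.24, from -0.50 with the Xist term to -0.061 without SOD1 replicate 3), and 5 had every SOD1 array below every WT array. Of all probe sets tested, 14.7% had an unadjusted p under 0.05 and 50.5% a negative difference. Every SOD1 array was below every WT array for 9.81% of them. The smallest p of the store genes were those of Calr, or calreticulin, the calcium buffer of the endoplasmic reticulum (-0.56 ± 0.17, limma, adjusted p = 0.175), and Orai1, a store-operated channel (-0.86 ± 0.32, adjusted p = 0.256). Of 8 tested genes for calcium extrusion 0 passed and 2 had an unadjusted p under 0.05 (median -0.088, from -0.21 with each gene's probe sets averaged to 0.064 with median centring, and 0.051 without WT replicate 1). They were the plasma membrane calcium pumps Atp2b2, at 15.80, 15.64 and 15.83 in WT and 15.16, 15.10 and 15.00 in SOD1 (-0.67 ± 0.12, adjusted p = 0.0563), and Atp2b3 (-0.35 ± 0.12, adjusted p = 0.212). The Atp2b2 groups were 0.48 apart.

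Effectors of calmodulin included the only gene of these lists that passed, though 2 genes of this list were called with a pseudocount of 64, a filter at the 60th percentile or array weights. Camta2, a calmodulin-binding transcription activator, fell from 13.92, 14.37 and 14.13 in WT to 13.09, 12.59 and 12.64 in SOD1 (-1.37 ± 0.21, limma, adjusted p = 0.0327, range over alternatives 0.0148 to 0.314), on a probe set that may also match other transcripts. The groups were 0.83 apart, and the call was lost in 7 of 17 alternatives, among them leaving out WT replicate 1, 2 or 3 or SOD1 replicate 2 or 3 (adjusted p from 0.0544 to 0.165). Of the 20 genes tested 1 fell, 7 had an unadjusted p under 0.05, 15 had a negative difference (median -0.24, from -0.38 with each gene's probe sets averaged to -0.11 with median centring), and 8 had every SOD1 array below every WT array. Of all probe sets tested, 0.122% passed as lower, 14.7% had an unadjusted p under 0.05 and 50.5% a negative difference. Every SOD1 array was below every WT array for 9.81% of them. After Camta2, the smallest p of this list was that of Camk2n2, an inhibitor of calmodulin kinase II (-0.72 ± 0.13, adjusted p = 0.0617). Of 6 tested partners of calneuron 1 and NCS-1, 0 passed and 0 had an unadjusted p under 0.05 (limma; median -0.038, from -0.13 without WT replicate 2 to 0.30 without WT replicate 3, and 0.076 with median centring). They had their smallest p in Pi4ka, a phosphatidylinositol 4-kinase (-0.23 ± 0.15, adjusted p = 0.518), and Ric8a, a G protein regulator (-0.38 ± 0.26, adjusted p = 0.532). Pi4kb, the kinase that calneuron 1 restrains, read 8.38, 7.94 and 8.81 in WT and 8.56, 9.37 and 8.58 in SOD1 (0.46 ± 0.47, adjusted p = 0.691).

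**Figure D4:**
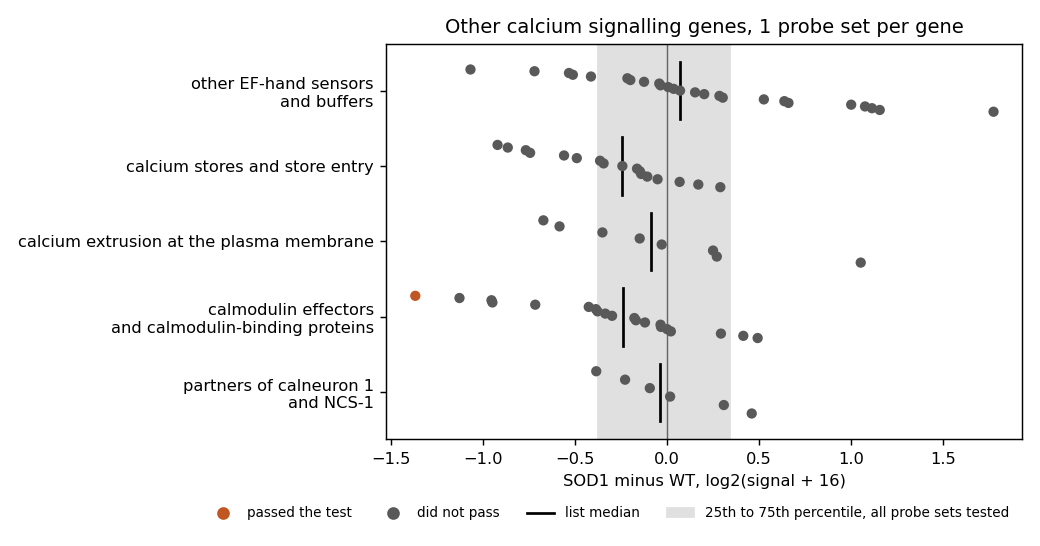
Each point is 1 gene of a calcium signalling list, placed by its difference between genotypes (SOD1 minus WT, log2(signal + 16)). The black bars are list medians, from -0.24 to 0.072, and the grey band holds the middle 50% of all probe sets tested. Camta2, in orange at -1.37, is the only gene of the 5 lists that passed.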

How the data were processed

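The authors deposited an intensity on a linear scale for each probe set of an array; the algorithm behind it is not given in the sources used here. Their 2% trimmed mean was 2500.02 on every array. Of 45101 probe sets 64 controls were left out, and of the other 45037, 34945 had 1 symbol, 932 several and 9160 none in the platform annotation. Arrays were quantile normalised, 16 was added and log2 taken. The 27022 probe sets whose mean exceeded the 40th percentile were tested in R 4.3.3 with limma 3.58.1 (lmFit and eBayes, trended variance). Tests were two-sided, p-values were adjusted over all 27022 by the Benjamini-Hochberg method, and the threshold was 0.05. Compression of high signals and noise in low ones, and the 3' bias of amplified RNA, can affect single probe sets. The Actb 3' minus 5' difference was 4.36 to 5.14 in WT and 4.20 to 4.88 in SOD1, highest on WT replicate 1. That of Gapdh was 4.68 on WT replicate 1 and 3.28 to 3.70 on the other arrays.

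The members and lists were chosen with earlier results of these data known. All member probe sets are named, with the 5 nearest to Caln1. Of each list, the genes past the threshold and the 2 with the smallest p are named. Pi4kb was added for its role, and Ttr and Slc26a7 were picked by hand. Marker lists set only beside Caln1 were those of oligodendrocytes and of endothelial and mural cells. The oligodendrocyte sum was 192228 to 222886 in WT and 256164 to 273897 in SOD1, with 0 of 9 past the threshold. The endothelial and mural sum was 30178 to 71831 in WT and 5917 to 20381 in SOD1, with 1 of 12 lower. Of all probe sets tested, 0.122% passed as lower.

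In simulated data for this comparison (27022 probe sets, 200 changed, 5 draws), 12.8% of log2 changes of 1 and 38.4% of changes of 2 were recovered, and 3.30% of calls were false. The simulated noise was independent for each probe set. Variation shared between probe sets was left out, so these rates need not hold for the real arrays. Figures were drawn with matplotlib 3.10.9. Alternatives changed the scaling, pseudocount, filter, variance model, array weights, block, Xist term, probe set averaging and left out each array.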

Additional observations from a re-analysis of the deposited data

How the results depend on the processing

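With 3 arrays per group, few changes of the size seen here can be called. Over the 18 alternatives 0 probe sets of the 9 genes other than Caln1 passed in any (lowest adjusted p = 0.140). Over all probe sets 50 were called, against 87 with a pseudocount of 64, 106 with a filter at the 60th percentile, 0 without a variance trend, 100 with array weights, 76 with the replicate block and 11 with each gene's probe sets averaged; without 1 array the count ran from 0 to 77 (9, 0 and 77 without WT replicate 1, 2 or 3, and 35, 4 and 29 without SOD1 replicate 1, 2 or 3). Of the calls 66% were lower in SOD1, against 53.7% with median centring, 52.6% with the block, 36.4% with probe sets averaged, 33.3% without WT replicate 1, and 94.3% and 100% without SOD1 replicate 1 or 2. The cause of these shifts was not tested. Same-numbered arrays did not deviate together (r across probe sets 0.028, -0.040 and -0.014). With 3 arrays per group, this check cannot exclude that the numbers pair the samples. The block changed no call among the members.

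The differences of the bright Caln1 probe sets ran from -0.93 to -0.67 and from -0.49 to -0.30 over the alternatives; since their groups do not overlap, leaving out an array could not turn the sign. Signs of small differences turned. With the values as deposited they were -0.081 for Ncald 1417569_at, -0.091 for Caln1 1442695_at, -0.069 for Ncs1 1450146_at and -0.015 for Hpca. With array weights Ncald 1417569_at was at -0.0055 and Ncs1 1450146_at at -0.010. The Xist term gave -0.059 for Ncald 1417569_at, 0.67 for Pvalb and -0.21 for Hpca; since both high arrays are SOD1, it rests on SOD1 replicate 3. Caln1 1442695_at was at -0.037 with a pseudocount of 64 and Ncs1 1450146_at at -0.0072 with 1. Leaving out 1 array gave -0.23 to 0.083 for Ncald 1417568_at, -0.15 to 0.22 for Ncald 1417569_at, -1.11 to 0.37 for Pvalb, -0.47 to 0.20 for Hpcal4, -0.53 to 0.069 for Ncs1 1434887_at, -0.25 to 0.41 for Ncs1 1450146_at, -0.86 to 0.60 for Caln1 1442695_at, -0.26 to 0.67 for Hpca and -1.86 to 1.17 for Calb2. Camta2 also lost its call without a variance trend (adjusted p = 0.314) and with the Xist term (0.0855). In 3 alternatives (a pseudocount of 64, the 60th percentile filter, array weights) 1 gene of calcium extrusion and 2 of the calmodulin list were called.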

Other observations

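The Calb2 value of WT replicate 1 was chosen for mention after it was seen. Its gap of 3.64 on the log2 scale to the next array was the widest that this array showed among the 27022 probe sets tested, of which 7 stood more than 2 above the other 5 arrays there. The probe sets of Ttr, the transthyretin gene of the choroid plexus, were also highest on WT replicate 1: Ttr 1454608_x_at read 13.21 there, 11.14 on SOD1 replicate 3 and 7.72 to 9.65 on the other arrays. Slc26a7, an anion transporter, read 10.68 on WT replicate 1 and 6.78 to 8.53 elsewhere. Ttr and Slc26a7 were picked by hand, and not all of the 7 probe sets are named. Nor was every Ttr probe set among the 7: 1451580_a_at read 10.36 on WT replicate 1 and 9.12 on SOD1 replicate 3.

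On SOD1 replicate 3, 32 probe sets stood more than 2 above the other 5 arrays, against 3 to 14 on each of the others. Among the neuron markers with their highest value there, the neuropeptide gene Npy read 13.89 against 7.99 to 8.95 elsewhere, and Vip read 11.51 against 6.90 to 9.32.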
